A study of Rattus norvegicus with 12 samples.

Results

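The 10 genes described here, Hspa5, Hsp90b1, Calr, Pdia4, Sdf2l1, Dnajb9, Herpud1, Xbp1, Atf4 and Ddit3, are standard markers of endoplasmic reticulum (ER) stress. They were taken by name, through the RefSeq accession of each probe, from the 15154 named genes of an Agilent rat array. Total RNA came from the bladder body of male Fischer 344 rats, an inbred strain, and every one of the 12 animals had an array of its own. Old restricted rats (25 to 28 months, n = 4) had been given food on 3 days of the week since they were 6 weeks of age, which the study puts at about 40% fewer calories. Old freely fed rats (25 to 28 months, n = 4) and young freely fed rats (6 months, n = 4) ate without limit. The questions addressed are whether these genes differ with age in freely fed rats, and whether long restriction changes them in old rats. All 10 genes were measured, by 11 probes (Sdf2l1 by 2), and all 10 were well above background on all 12 arrays.

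The ER folds and modifies secreted and membrane proteins. When unfolded proteins accumulate there, the membrane sensors PERK, IRE1 and ATF6 start the unfolded protein response. PERK slows translation and favours production of the transcription factor ATF4, which in turn induces Ddit3 (CHOP). IRE1 splices the Xbp1 message into the form that encodes an active factor, and cleaved ATF6 acts with the CCAAT-binding factor NF-Y on the ER stress response element (ERSE) of chaperone genes. In the bladder, the urothelium makes large amounts of membrane proteins, the uroplakins, and the smooth muscle and fibroblasts secrete matrix.

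The promoters of the 10 genes were searched for exact matches to such elements. Forms that differ in any fixed letter, and elements outside the searched bases, were not counted. A promoter without a match may therefore still carry such an element, and one with a match may carry more. The ERSE was searched as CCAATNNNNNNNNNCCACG on both strands in the 250 bases before the RefSeq start of 33469 rat promoters (build GRCr8). It was present in 0.0657% of those promoters and in 4 of the 10, those of Hspa5, Hsp90b1 (which has 2), Xbp1 and Calr. A CCAAT box alone, which every ERSE contains, was present in 34.0% of all promoters and in 9 of the 10, all but that of Atf4. The matches are given on the strand that reads as the motif, with the fixed letters in capitals and the free spacer in lower case. Creld2 and Dnajc3 are shown beside them because both belong to the wider ER pathway and their levels come back in the results.
Hspa5 (chr3:38452973-38452991, plus strand, 25 to 43 bases upstream): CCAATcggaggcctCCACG
Hsp90b1 (chr7:23012347-23012365, plus strand, 54 to 72 bases upstream): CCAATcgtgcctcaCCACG
Hsp90b1 (chr7:23012451-23012469, minus strand, 158 to 176 bases upstream): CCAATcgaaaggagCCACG
Xbp1 (chr14:84604558-84604576, plus strand, 47 to 65 bases upstream): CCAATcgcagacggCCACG
Calr (chr19:40213135-40213153, minus strand, 214 to 232 bases upstream): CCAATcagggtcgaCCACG
Creld2 (chr7:121789239-121789257, minus strand, 127 to 145 bases upstream): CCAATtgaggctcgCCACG
Dnajc3 (chr15:102432534-102432552, plus strand, 115 to 133 bases upstream): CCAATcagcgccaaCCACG

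The variant ERSE-II was searched as ATTGGNCCACG on both strands. It occurred in 0.0418% of promoters and, among the 10 genes, in that of Herpud1 alone. Hyou1, an ER chaperone related to Hsp70, had 2 matches and is shown for comparison.
Herpud1 (chr19:10614821-10614831, minus strand, 114 to 124 bases upstream): ATTGGgCCACG
Hyou1 (chr8:53602694-53602704, minus strand, 178 to 188 bases upstream): ATTGGcCCACG
Hyou1 (chr8:53602794-53602804, minus strand, 78 to 88 bases upstream): ATTGGgCCACG

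Herpud1 and Hspa5 are given as whole windows because Herpud1 was called in these bladders and Hspa5 was not. Both are RefSeq sequences of GRCr8. Capitals mark the ERSE in the window of Hspa5. In that of Herpud1 they mark the ERSE-II and a match to TGATGNAA (here on the opposite strand), the core of the element that ATF4 binds, which was present in 3.40% of all promoters and in no other of the 10. A further element, TGACGTGG, which is bound by XBP1 and ATF6, was present in 0.520% of all promoters and in 0 of the 10. These matches describe letters in a window and no more.
Hspa5 promoter (chr3:38452766-38453015, plus strand): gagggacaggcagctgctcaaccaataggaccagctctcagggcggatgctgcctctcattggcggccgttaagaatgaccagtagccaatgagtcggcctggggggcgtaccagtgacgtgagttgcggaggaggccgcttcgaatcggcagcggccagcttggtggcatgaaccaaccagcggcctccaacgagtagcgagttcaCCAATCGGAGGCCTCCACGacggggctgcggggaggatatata
Herpud1 promoter (chr19:10614708-10614957, minus strand): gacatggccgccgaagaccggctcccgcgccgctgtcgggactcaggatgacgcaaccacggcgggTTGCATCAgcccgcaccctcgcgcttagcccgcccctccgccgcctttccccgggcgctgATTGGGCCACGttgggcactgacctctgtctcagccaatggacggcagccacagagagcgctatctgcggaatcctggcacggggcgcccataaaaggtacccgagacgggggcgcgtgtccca

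Levels are log2 processed signals minus the log2 of the 75th percentile of the same array, so that 0 is a spot as bright as that percentile. Levels of different genes come from different probes and are not set against each other. The 75th percentile was 4123 to 4697 on arrays of restricted, 4646 to 4892 on those of old freely fed and 3993 to 4837 on those of young rats. Arrays of restricted rats filled a slide of their own, read in its own scan, so restriction and slide cannot be told apart. Those of both freely fed groups shared the other slide, with young rats in array row 1 and old rats in array row 2. Age in freely fed rats and array row thus cannot be told apart either. The first principal component placed old freely fed replicate 2 at 50.8 and the rest of its group at 4.73 to 6.44. Markers of smooth muscle (8 of 8 tested) and urothelium (7 of 8 tested) summed to 313 to 501 and 272 to 346 times the 75th percentile over all animals, as fits the labelled tissue. Each result compares whole tissue, in which fewer cells of a type and less RNA per cell cannot be told apart.

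Herpud1 was the member that differed between groups, and it was higher in restricted rats than in both freely fed groups. It encodes an ER membrane protein with a ubiquitin-like domain that helps to bring misfolded proteins to degradation. Its levels were 1.51, 1.53, 1.46 and 1.64 in restricted rats, against 1.12, 1.10, 1.12 and 1.13 in old freely fed rats and 1.13, 1.18, 1.16 and 1.31 in young rats. Every restricted animal lay above every freely fed one, a separation that 8.64% of all features showed in that direction against old freely fed rats and 7.16% against young rats, and the 4 old freely fed animals spanned 0.035. Herpud1 rose by 0.42 on the log2 scale with restriction (SE 0.05, 95% interval 0.31 to 0.53, 1.34-fold, limma, adjusted p = 0.00195). Against young rats it was higher by 0.34 in restricted rats (SE 0.05, 95% interval 0.24 to 0.45, 1.27-fold, limma, adjusted p = 0.00296). These comparisons share the restricted animals. Between old and young freely fed rats the log2 difference was -0.08 (95% interval -0.18 to 0.03, adjusted p = 0.333).

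Both calls of Herpud1 held whichever of the 12 animals was left out. The log2 change with restriction was then 0.39 to 0.45 (limma, adjusted p = 0.00254 to 0.00888), and that against young rats 0.31 to 0.38 (adjusted p = 0.00284 to 0.0117). Several cell type marker sums also differed between these groups without overlap. T and NK cell markers (8 of 8 tested) summed to 1.57 to 1.98 in restricted rats and 2.38 to 5.50 in old freely fed rats, in units of the 75th percentile. Urothelial markers summed to 321 to 331 in restricted rats and 272 to 313 in old freely fed rats. The T and NK cell sum was thus lower in restricted rats and the urothelial sum higher. Old freely fed replicate 2 held the T and NK cell sum of 5.50. Of the T and NK cell list limma called Cd7 and Cd3d alone with restriction (adjusted p = 0.0019 and 0.0156). Of the urothelial list it called none (lowest adjusted p = 0.0918, Krt7). Adipocyte markers (3 of 5 tested) summed to 5.43 to 6.15 in restricted rats and 7.37 to 7.54 in old freely fed rats. Most of that was signal of the Fabp4 probe. With restriction limma called none of the 3 (adjusted p = 0.206 for Fabp4, 0.0875 for Adipoq and 0.187 for Cidec). Smooth muscle markers summed to 378 to 445 in restricted rats and 482 to 501 in young rats. Prostate and seminal vesicle markers (4 of 9 tested), a sign of neighbouring tissue, summed to 0.0739 to 0.101 in restricted rats and 0.163 to 0.522 in young rats. Both of these sums were lower in restricted than in young rats. Of the prostate and seminal vesicle list Klk1 fell by 1.43 on the log2 scale (limma, adjusted p = 0.00637). Andpro was well above background on 0 of 4 restricted and 4 of 4 young arrays. It entered the test only through the young group, as probes had to stand well above background on all arrays of some group. Its p-value is therefore not given. Sbp was lower by 0.96 (adjusted p = 0.161) and Tgm4 higher by 0.28 (adjusted p = 0.613), neither past the threshold. The part of these cell types and tissues, and of the slide, in the level of Herpud1 was not tested.

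**Figure D1:**
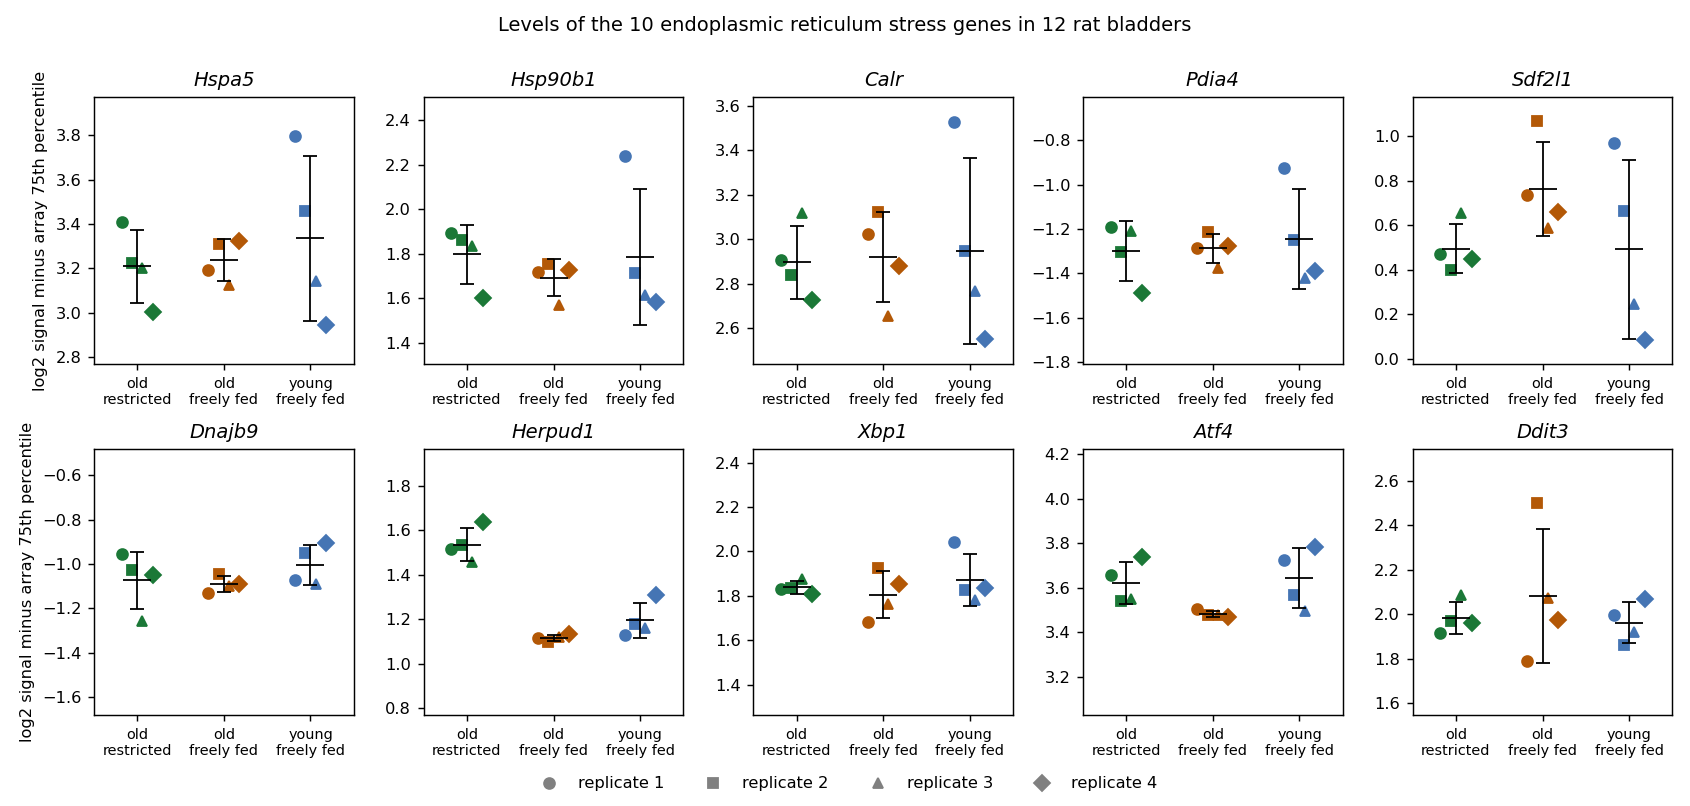
Level of each of the 10 genes (vertical axis, log2 signal minus the 75th percentile of the array) in each rat by group, with mean and SD as bars (n = 4 rats a group) and a shape for each replicate number, which does not link animals across groups. All panels span the same number of log2 units. Herpud1 is 1.46 to 1.64 in old restricted rats, above all 8 freely fed rats, while the spread of Hspa5, Hsp90b1, Calr, Pdia4 and Sdf2l1 is widest among young rats.

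Over all 20425 features tested, limma called 3.64% between restricted and freely fed old rats (1.62% higher, 2.02% lower). It called 3.72% between old and young freely fed rats (1.63% higher, 2.1% lower) and 9.18% between restricted old and young rats (3.19% higher, 5.99% lower). Of the 10 genes, 1, Herpud1, was higher in restricted than in old freely fed rats, 0 differed with age and 1, again Herpud1, was higher in restricted than in young rats. A single call among 10 genes is a small count to set beside these shares. The median log2 change of the 10 was 0.00 with restriction, against 0.02 for all features. With age it was -0.07 against -0.05, and between restricted and young rats -0.03 against -0.01.

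The chaperones of the ER lumen did not pass the threshold in any comparison. Hspa5 (BiP), the main Hsp70 chaperone of the ER and the one that holds the sensors inactive, was measured at 3.41, 3.22, 3.20 and 3.01 in restricted rats, 3.19, 3.31, 3.13 and 3.32 in old freely fed rats and 3.79, 3.46, 3.14 and 2.95 in young rats. All 3 groups overlapped, and the young animals held both the highest and the lowest level. The estimated log2 change was -0.03 with restriction (95% interval -0.36 to 0.30, limma, adjusted p = 0.935) and -0.10 with age (95% interval -0.43 to 0.23, adjusted p = 0.719). Between restricted and young rats it was -0.13 (95% interval -0.46 to 0.20, adjusted p = 0.636).

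Hsp90b1 (GRP94), the Hsp90 of the ER, was measured at 1.89, 1.86, 1.83 and 1.60 in restricted rats, 1.72, 1.75, 1.57 and 1.73 in old freely fed rats and 2.24, 1.71, 1.61 and 1.58 in young rats. Young replicate 1 stood above all other animals. The fitted log2 change was 0.11 with restriction (95% interval -0.17 to 0.38, limma, adjusted p = 0.669) and -0.09 with age (95% interval -0.37 to 0.18, adjusted p = 0.670).

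Calr, calreticulin, a calcium-binding chaperone for glycoproteins, showed the same kind of spread. It was measured at 2.91, 2.84, 3.12 and 2.72 in restricted rats, 3.02, 3.12, 2.66 and 2.88 in old freely fed rats and 3.53, 2.95, 2.77 and 2.55 in young rats. The young animals again spanned more than both old groups, 0.98 log2 units or 1.97-fold between the lowest and the highest. The log2 difference came to -0.02 with restriction (95% interval -0.42 to 0.37, limma, adjusted p = 0.953) and -0.03 with age (95% interval -0.42 to 0.36, adjusted p = 0.937).

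Pdia4 (ERp72), which forms and rearranges disulphide bonds in new proteins, was measured at -1.19, -1.31, -1.21 and -1.49 in restricted rats, -1.28, -1.21, -1.38 and -1.28 in old freely fed rats and -0.93, -1.25, -1.42 and -1.39 in young rats. The groups overlapped, with young replicate 1 highest. In log2 units the change was -0.01 with restriction (95% interval -0.24 to 0.21, limma, adjusted p = 0.961) and -0.04 with age (95% interval -0.27 to 0.18, adjusted p = 0.830).

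Sdf2l1, a partner of ER co-chaperones that keeps unfolded proteins from clumping, had larger log2 changes with restriction and with age than the other luminal chaperones, none past the threshold. It was measured at 0.47, 0.40, 0.65 and 0.45 in restricted rats, 0.74, 1.07, 0.59 and 0.66 in old freely fed rats and 0.97, 0.66, 0.25 and 0.08 in young rats. Of the restricted animals, 3 lay below all old freely fed ones, and the young animals overlapped both. The log2 change was -0.27 with restriction (95% interval -0.64 to 0.10, limma, adjusted p = 0.395) and 0.27 with age (95% interval -0.10 to 0.64, adjusted p = 0.343). Its other probe gave -0.23 and 0.26, with adjusted p = 0.416 and 0.323 in the fit on all probes.

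Dnajb9 (ERdj4), a co-chaperone of BiP that also holds IRE1 in check, was measured at -0.96, -1.03, -1.26 and -1.05 in restricted rats, -1.13, -1.05, -1.10 and -1.09 in old freely fed rats and -1.07, -0.95, -1.09 and -0.90 in young rats. The groups overlapped in each comparison. The estimated log2 change was 0.02 with restriction (95% interval -0.13 to 0.16, limma, adjusted p = 0.913) and -0.09 with age (95% interval -0.23 to 0.06, adjusted p = 0.443).

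Among the transcription factors, Atf4 had the clearest pattern, below the threshold. It was measured at 3.66, 3.54, 3.55 and 3.74 in restricted rats, 3.50, 3.48, 3.48 and 3.47 in old freely fed rats and 3.73, 3.57, 3.49 and 3.78 in young rats. All 4 restricted animals lay above all 4 old freely fed ones, as 8.64% of all features did. The fitted log2 change was 0.14 with restriction (95% interval -0.0032 to 0.28, limma, adjusted p = 0.253) and -0.16 with age (95% interval -0.30 to -0.02, adjusted p = 0.157). Among the 10 genes only Atf4 reached an unadjusted p under 0.05 with age (limma), as did 24.6% of all features. Because ATF4 is controlled largely at translation, its message need not follow its protein.

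Xbp1 was measured at 1.83, 1.84, 1.88 and 1.81 in restricted rats, 1.68, 1.93, 1.76 and 1.85 in old freely fed rats and 2.04, 1.83, 1.78 and 1.84 in young rats. The restricted animals lay closest together and inside the range of both other groups. The log2 difference came to 0.03 with restriction (95% interval -0.11 to 0.17, limma, adjusted p = 0.811) and -0.07 with age (95% interval -0.20 to 0.07, adjusted p = 0.550). The array gives a level for Xbp1 RNA and not its splicing, which is the step that IRE1 controls.

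Ddit3 (CHOP), a factor of the late, death-promoting arm, was measured at 1.92, 1.97, 2.09 and 1.96 in restricted rats, 1.79, 2.50, 2.07 and 1.97 in old freely fed rats and 1.99, 1.86, 1.92 and 2.07 in young rats. Old freely fed replicate 2, the animal that stood apart on the first principal component, held the highest level. Macrophage markers (8 of 8 tested) summed to 12.7 to 22.9 in old freely fed rats and 9.35 to 10.9 in young rats. Of these 8, limma called Ptprc and Laptm5 alone with age (log2 changes 0.92 and 0.72, adjusted p = 0.0379 and 0.0321). The part of these markers in the levels of Ddit3 was not tested. In log2 units the change was -0.10 with restriction (95% interval -0.36 to 0.16, limma, adjusted p = 0.668) and 0.12 with age (95% interval -0.14 to 0.38, adjusted p = 0.551).

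Between restricted old and young rats, the 9 members other than Herpud1 had log2 changes of -0.13 to 0.02 (limma, adjusted p = 0.543 to 0.995). The widest of their intervals ran to 1.37-fold lower and 1.30-fold higher in restricted rats. With restriction the intervals of these 9 reached 1.56-fold lower and 1.30-fold higher, and with age those of all 10 reached 1.35-fold lower and 1.56-fold higher. These bounds are the outermost over the genes, and each gene has an interval of its own. Differences inside the interval of a gene could not be resolved for that gene with 4 animals a group.

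**Figure D2:**
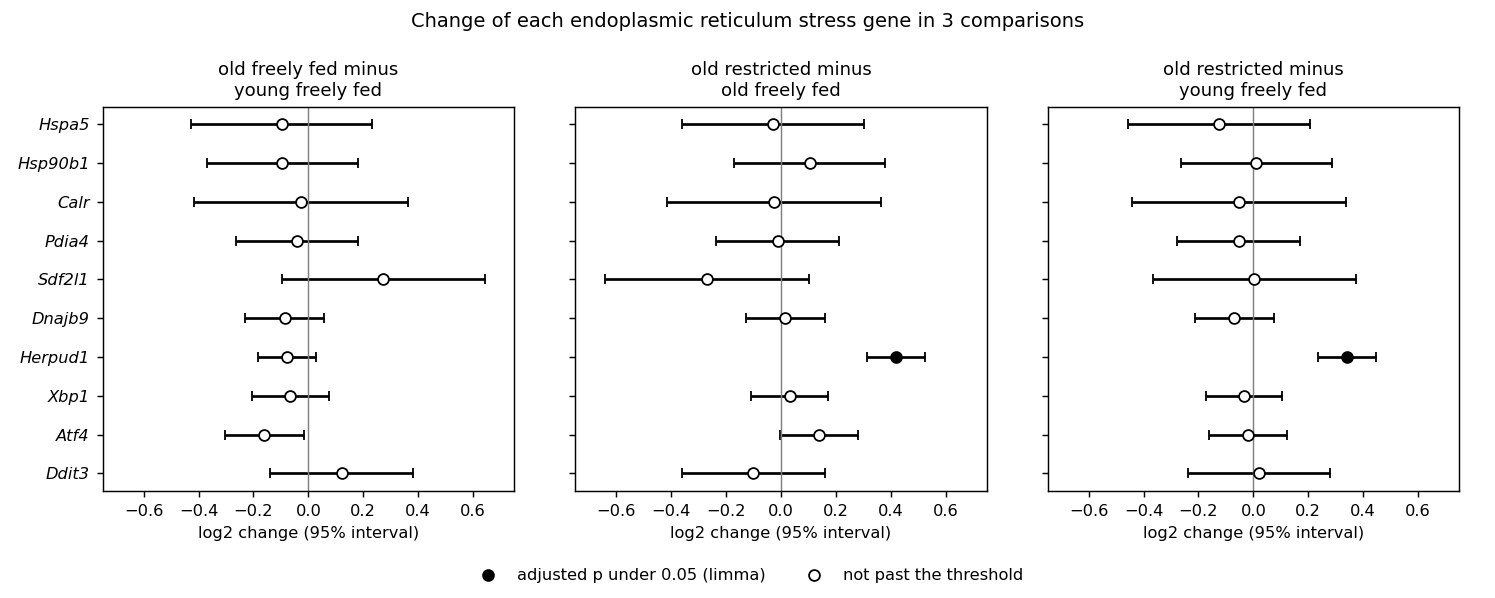
Log2 change of each gene (horizontal axis) with its 95% interval in the 3 comparisons, from limma on all 12 arrays (n = 4 rats a group), with filled points for an adjusted p under 0.05. Herpud1 is filled in both comparisons that hold old restricted rats, at 0.42 and 0.34, and no other gene is filled.

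Hspa5 varied together with Hsp90b1 and Pdia4 between animals of the same group. After the mean of each group was taken off, Hspa5 correlated across the 12 animals with Hsp90b1 (r = 0.91, exact permutation within groups, two-sided p = 0.000145, adjusted over 9 genes 0.0013; rho = 0.85, adjusted p = 0.00521). It also correlated with Pdia4 (r = 0.91, exact permutation, adjusted p = 0.00911; rho = 0.83, adjusted p = 0.0182). Young replicate 1 was above its group mean in all of these genes and young replicates 3 and 4 were below it. Without young replicates 1 and 4, which lay farthest out in Hspa5, r was 0.79 for Hsp90b1 and 0.86 for Pdia4. Both correlations passed in 11 of the 12 sets that left out 1 animal. Without young replicate 3, r was 0.90 and 0.91 but the adjusted p was 0.0911 for both (exact permutation).

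Calr (r = 0.85, exact permutation within groups, adjusted p = 0.0247) and Sdf2l1 (r = 0.82, adjusted p = 0.0477) passed on r but not on rho (0.71 and 0.73, adjusted p = 0.112 and 0.139). Without the same pair of young animals r was 0.54 and 0.51, so these relations rest largely on them. Leaving out 1 animal ended the call of Calr in 6 of 12 sets, with r of 0.65 to 0.90, and that of Sdf2l1 in 8 of 12, with r of 0.65 to 0.88. For Calr these animals were young replicates 1 to 4, old freely fed replicate 3 and restricted replicate 4. For Sdf2l1 they were the same animals and old freely fed replicates 1 and 2. Xbp1 had r = 0.66 (exact permutation, adjusted p = 0.0694; rho = 0.53) and Herpud1 r = -0.69 (adjusted p = 0.0896; rho = -0.52), and neither passed. Without the pair of young animals these were 0.46 and -0.38.

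Ddit3, Atf4 and Dnajb9 had r of -0.01, -0.08 and -0.09 with Hspa5 (exact permutation, adjusted p = 0.945 for each; rho = -0.19, -0.15 and 0.14). Without young replicates 1 and 4 they were 0.09, -0.02 and 0.49. The pairs among Hspa5, Hsp90b1, Pdia4, Calr and Sdf2l1 had r of 0.77 to 0.96. The same 5 genes had r of 0.66 to 0.74 with Xbp1 and of -0.73 to -0.63 with Herpud1. Over all other 20424 features the median r with Hspa5 was 0.01, and 0.798% reached 0.8. Within the 8 arrays of the slide with both freely fed groups, r with Hspa5 was 0.91 for Hsp90b1, 0.93 for Pdia4, 0.92 for Calr and 0.92 for Sdf2l1.

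Other measures of the young animals are given beside these. Fibroblast markers (6 of 7 tested) summed to 232, 244, 208 and 174 in young replicates 1 to 4, where Hspa5 was 3.79, 3.46, 3.14 and 2.95. The first principal component was -23.2, -15.9, -16.3 and -15.1 in the same order, and the 75th percentile was 4429, 4370, 4837 and 3993. The part of these measures in the shared variation was not tested.

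**Figure D3:**
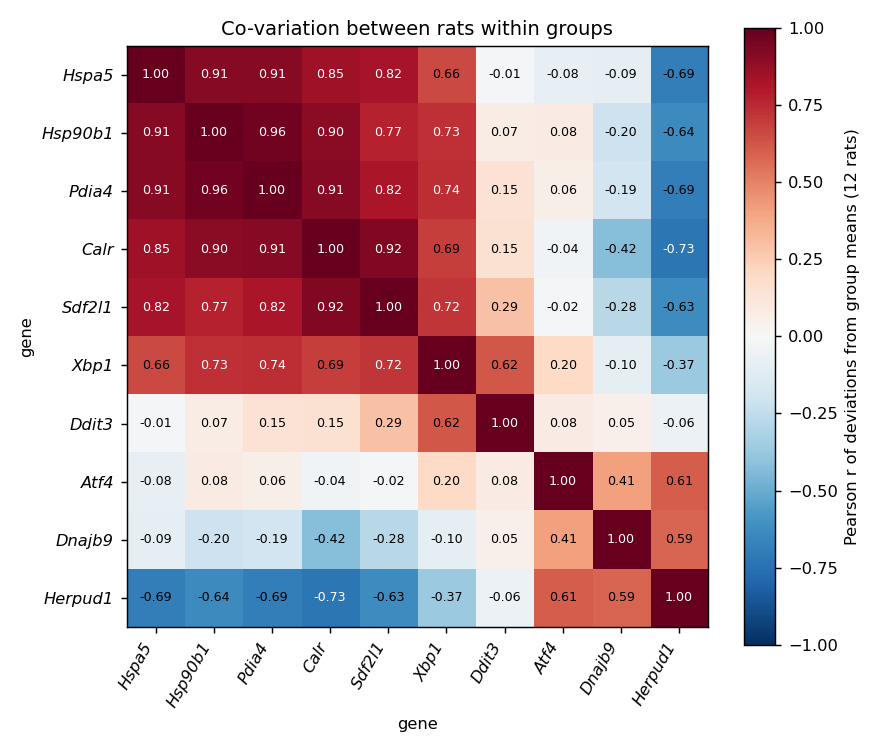
Pearson r between each pair of the 10 genes over 12 rats, after the mean of each group was taken off (both axes list the genes and colour runs between -1 and 1). Hspa5, Hsp90b1, Pdia4, Calr and Sdf2l1 form a block at 0.77 to 0.96, and Herpud1 is at -0.73 to -0.63 with each of them.

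The genes whose variation was most like that of Hspa5 were found among 12035 other named features by the same group-centred r over 12 animals, as a description. The 8 highest were Creld2 (r = 0.97), Slc35b1 (0.96), Arg2 (0.93), Raly (0.92), Mns1 (0.92), Dnajb11 (0.92), Pdia4 (0.91) and Hsp90b1 (0.91). Creld2 encodes an ER protein with disulphide isomerase activity, Slc35b1 carries ATP into the ER where BiP uses it, and Dnajb11 is a co-chaperone of BiP. Arg2 is a mitochondrial arginase, Raly an RNA-binding protein and Mns1 a protein of cilia and sperm tails.

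Creld2 had the highest of these r and was picked for it, so its likeness to Hspa5 describes that choice and is no separate result. It was measured at -1.06, -1.22, -1.26 and -1.42 in restricted rats, -1.19, -1.13, -1.37 and -1.04 in old freely fed rats and -0.72, -0.96, -1.26 and -1.35 in young rats. In every group the order of the animals in Creld2 was their order in Hspa5. Its r with Hspa5 was 0.96 without young replicates 1 and 4. Its log2 change was -0.05 with restriction (limma, adjusted p = 0.845) and -0.11 with age (adjusted p = 0.623).

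**Figure D4:**
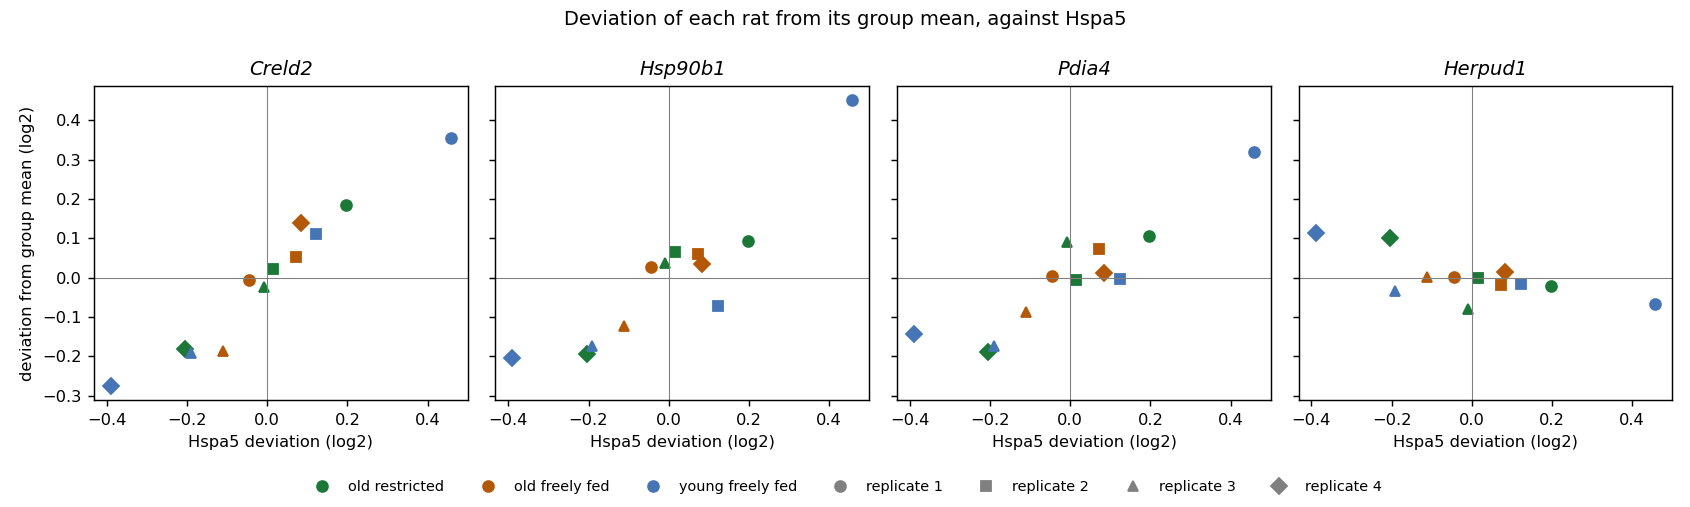
Deviation of each of the 12 rats from its group mean (log2) in Creld2, Hsp90b1, Pdia4 and Herpud1 (vertical axes) against that in Hspa5 (horizontal axes), with colours for groups and shapes for replicate numbers. Creld2 rises with Hspa5 over the whole range (r = 0.97), while Herpud1 is highest in the animals with the least Hspa5 of their groups among young and old restricted rats (r = -0.69).

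Of the 21 genes whose promoters held an ERSE, 15 were tested, and of the 14 other than Hspa5, 5 had r of at least 0.8 with it. The median r of the 14 was 0.41, with a range of -0.71 (Ankmy2) to 0.97. Over all 20424 features other than Hspa5, 0.798% reached 0.8. Creld2, Hsp90b1, Dnajc3 and Calr, whose matches are printed above, were among those 5, with Dnajc3, an ER co-chaperone that inhibits PERK, at r = 0.89. Derl3, which also holds an ERSE, was at 0.13. No chance test was made of this set, whose promoters were searched with these correlations known.

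The wider ER pathway was followed with 5 lists of 126 genes, of which 112 were tested. With restriction 2 of the 112 were higher and 1 was lower, with age 1 was higher and 2 were lower, and between restricted and young rats 5 were higher and 2 were lower. These are 2.68%, 2.68% and 6.25% of the genes tested, beside 3.64%, 3.72% and 9.18% of all features. The median log2 change of the 112 was 0.04 with restriction, -0.03 with age and 0.03 between restricted and young rats.

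Of the 15 tested sensors and signalling genes, 1 was higher with restriction. Traf2, the adaptor through which IRE1 activates stress kinases, was at -1.36 ± 0.02 in restricted and -1.57 ± 0.02 in old freely fed rats (SD, n = 4 each), a log2 change of 0.21 (SE 0.04, limma, adjusted p = 0.0152). It passed in all 12 fits that left out 1 animal. Against young rats 2 of the 15 were lower. Creb3l2, an ER-bound transcription factor of the ATF6 kind, had a log2 change of -0.51 (limma, adjusted p = 0.0455), and Nfe2l1, an ER-bound factor that induces proteasome genes, one of -0.26 (adjusted p = 0.0337). They passed in 3 and 6 of 12 such fits.

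Of the 30 tested targets of ATF4 and CHOP, Phgdh, the first enzyme of serine synthesis, was called in both comparisons with old freely fed rats, which share those animals. Its mean level was 0.03 ± 0.12 in restricted, 0.47 ± 0.10 in old freely fed and -0.12 ± 0.20 in young rats (SD, n = 4 each). It rose by 0.59 on the log2 scale with age (SE 0.10, limma, adjusted p = 0.0144) and fell by 0.44 with restriction (SE 0.10, adjusted p = 0.0303). The age call held in all 12 fits that left out 1 animal, and the restriction call in 6. Marker sums also separated the freely fed groups. T and NK cell markers summed to 2.38 to 5.50 in old and 1.39 to 1.71 in young freely fed rats. The macrophage sum was likewise higher in old rats, with Ptprc and Laptm5 alone of its genes called with age. Smooth muscle markers summed to 313 to 454 in old and 482 to 501 in young freely fed rats. Of these, Tagln ranged from -1.97 to 6.24 in old freely fed rats and was well above background on 3 of 4 arrays. Urothelial markers summed to 272 to 313 in old and 314 to 346 in young freely fed rats. Of that list limma called Krt5 alone with age, and it was higher in old rats (log2 change 0.66, adjusted p = 0.0361). Prostate and seminal vesicle markers summed to 0.0565 to 0.136 in old and 0.163 to 0.522 in young freely fed rats. Their part in the calls of Phgdh, and in the age calls of Calu and Rnf5 given next, was not tested. Nor was that of the array row in these age calls. Against young rats 3 targets were higher in restricted rats. These were Slc7a11, the cystine transporter, at 0.44 (limma, adjusted p = 0.0397), Sesn2, a stress-induced inhibitor of mTORC1, at 0.39 (adjusted p = 0.0381) and Asns, asparagine synthetase, at 0.24 (adjusted p = 0.0286). They held in 3, 5 and 8 of 12 fits.

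Of the 24 tested chaperones and folding enzymes, Fkbp14, a prolyl isomerase that acts on collagen, was higher in restricted rats. Its mean level was -2.46 ± 0.03 in restricted, -2.72 ± 0.11 in old freely fed and -2.69 ± 0.04 in young rats (SD, n = 4 each). The log2 change was 0.25 with restriction (SE 0.06, limma, adjusted p = 0.0351) and 0.22 against young rats (SE 0.06, adjusted p = 0.0333), and each call held in 4 of 12 fits. Calu, calumenin, a calcium-binding protein of the secretory pathway, fell by 0.32 with age (SE 0.08, adjusted p = 0.0483), a call that held in 2 of 12 fits.

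Of the 20 tested genes of ER-associated degradation, the list nearest to the role of Herpud1, 0 were called with restriction (limma, 3 at an unadjusted p under 0.05), with a median log2 change of 0.06 and 17 of 20 above 0. Over all features the median was 0.02 and 57.4% were above 0. Rnf5, an ER membrane ubiquitin ligase, fell by 0.19 with age (SE 0.04, adjusted p = 0.0435), a call that held in 3 of 12 fits. Derl3, a member of the derlin family that is strong in secretory cells, was at -2.84 ± 0.12 in restricted and -3.26 ± 0.06 in young rats (SD, n = 4 each). Its log2 change was 0.42 (SE 0.10, limma, adjusted p = 0.0251) and held in 8 of 12 fits. Plasma cell markers (4 of 9 tested) summed to 36.6 to 43.1 in restricted and 34.4 to 37.4 in young rats, nearly all of it signal of the Sdc1 probe. Without Sdc1 the other 3 summed to 0.0648 to 0.136 in restricted and 0.0634 to 0.0745 in young rats, so the groups overlapped. Mzb1, the most specific of the 4, was well above background on 2 of 4 restricted and 0 of 4 young arrays. Its adjusted p between these groups was 0.0832 (limma). Negative controls scattered more widely on each young array (SD 26.7 to 35.7 in signal) than on any restricted array (7.82 to 25.8). On old freely fed arrays their SD was 3.29 to 10.8, so the age comparison also differs in noise. The part of these differences in noise in the counts and level of Mzb1 was not tested. Nor was their part in the levels of other dim genes called against young rats, such as Derl3, Slc7a11 and Sesn2. The part of plasma cells in the level of Derl3 was not tested. Of the 23 tested genes of translocation and glycosylation, limma called 0 in all 3 comparisons, with 3, 0 and 2 at an unadjusted p under 0.05 with restriction, with age and between restricted and young rats, where 20.6%, 24.6% and 26.1% of all features were.

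**Figure D5:**
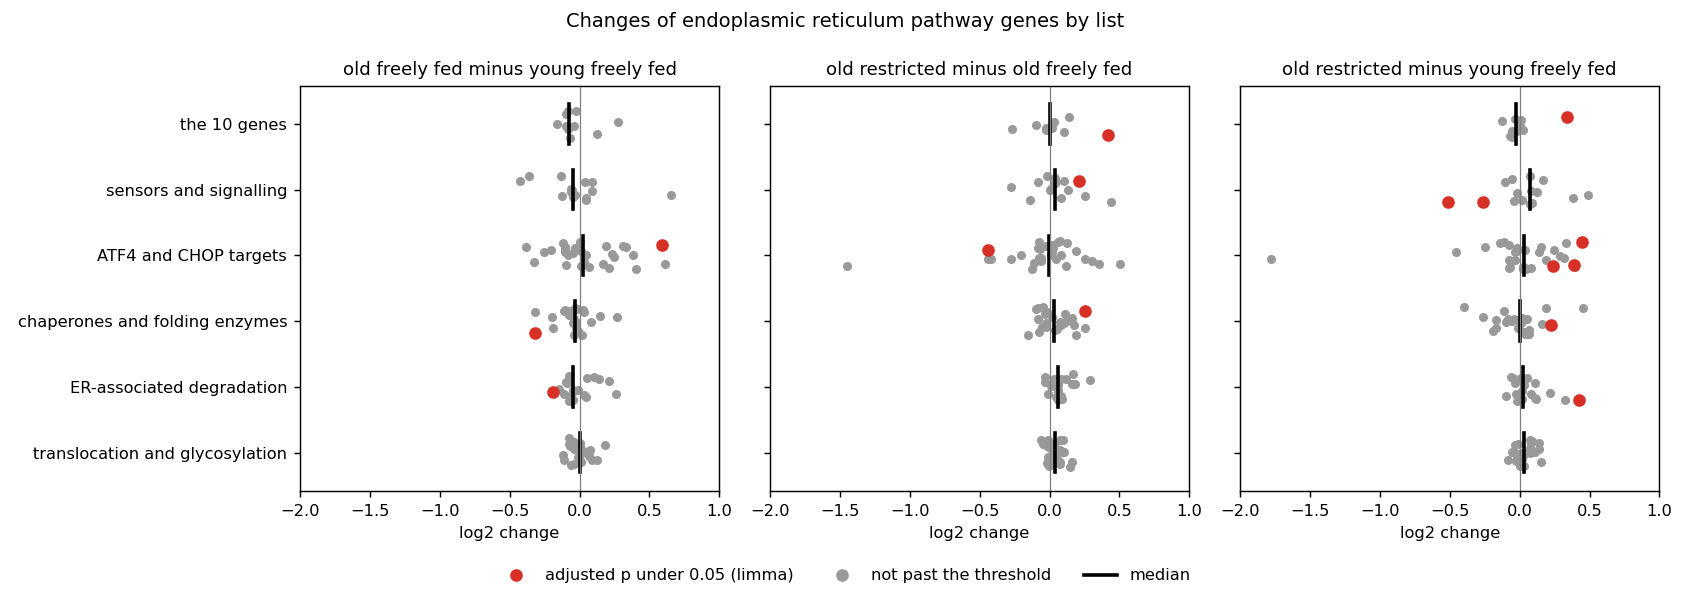
Log2 change (horizontal axis) of every tested gene of the 10 and of the 5 ER pathway lists in the 3 comparisons (n = 4 rats a group), with the median of each list as a black bar and genes with an adjusted p under 0.05 in red. List medians lie within 0.08 of 0, and red points are 3, 3 and 7 of the 112 pathway genes, beside Herpud1 in both comparisons with old restricted rats.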

How the data were processed

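Total RNA of 12 bladders was labelled with Cy3 and hybridised to 1-colour Agilent arrays, per the labels' protocols. The deposited intensity values are spot signals from Agilent Feature Extraction 10.7, per the submitters' processing notes, background-subtracted and detrended within each array and not scaled between arrays, per the file headers. The files' headers name genome build rn4, whose coordinates are not used here. The authors' series table, in the same intensity unit, equalled the processed signal in 100% of spots (relative tolerance 1e-06) and was not used further.

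Groups came from the labels, and replicate numbers from the source names. Log2 signals minus the log2 75th percentile of the 58717 non-control spots of each array were averaged per probe. RefSeq accessions were matched to a table of GRCr8, used for names and promoters alone, and named 17998 of 30367 probes (59.3%). Probes had to stand well above background in all 4 animals of some group, and the brightest probe represented a gene, which left 20425 features. Limma 3.58 in R 4.3 fitted group means to all 12 arrays and moderated the errors along a brightness trend (eBayes, prior degrees of freedom 2.72, residual 9). Tests were two-sided, with p-values adjusted by Benjamini-Hochberg over all features and a threshold of 0.05. Correlations used deviations from group means and all 13824 arrangements within groups. Alternatives covered scaling, background correction, filters, probes, samples and replicates. The normexp alternative used median signals and backgrounds (offset 50). The steps were tested on simulated data. P-values measure the spread between animals. The number of arrays limits the precision. No slide block could be fitted for restriction, and no array row block for age.

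The 10 genes, the lists and the motifs were chosen with earlier results of these data known. Named genes were all 10, the called genes of each list and the 8 features most like Hspa5.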

Additional observations from a re-analysis of the deposited data

How the results depend on the processing

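The counts among the 10 genes (1 with restriction, 0 with age, 1 between restricted and young rats) and the calls of Herpud1 were unchanged under every alternative run, with adjusted p = 0.00140 to 0.00750 with restriction and 0.00250 to 0.0115 against young rats (limma, fits on all animals). Pathway calls moved more. With age, 3 became 1 with quantile scaling, 1 with normexp, 1 with the pair, 9 with no filter and 0 within the arrays of the freely fed groups. With restriction, 3 became 1 with the replicate number as a block, and between restricted and young rats 7 became 4 with normexp. Leaving out 1 animal gave 1 to 3 with restriction, 1 to 5 with age and 0 to 9 between restricted and young rats. Calls over all features with age went to 462 with quantile scaling after normexp, 3568 with no filter, 440 with no brightness trend, 94 within the freely fed groups and 498 with the replicate block, against 760. With restriction they went to 478 within the groups compared, against 744, and between restricted and young rats to 3259 with no filter, against 1874. Leaving out 1 animal gave 268 to 848 with restriction, 121 to 927 with age and 737 to 2089 between restricted and young rats. Deviations of animals with the same replicate number correlated at -0.19 to 0.10, so the numbers do not pair animals, and the block changed no call among the 10 genes. The causes were not tested.

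Signs changed only for small log2 changes, none past the threshold. With restriction, Pdia4 was 0.0048 with quantile scaling, 0.051 with normexp and 0.055 with both, and Calr 0.0039 with normexp and 0.0089 with both. With age, Calr was 0.0064 with quantile scaling and 0.020 with both. Between restricted and young rats, Atf4 was 0.011 with quantile scaling and 0.013 with both, Calr 0.029 with both and Ddit3 -0.016 with normexp. Leaving out 1 animal with restriction gave Hspa5 -0.094 to 0.040, Ddit3 -0.20 to 0.039, Xbp1 -0.0096 to 0.072, Dnajb9 -0.022 to 0.078, Pdia4 -0.047 to 0.051 and Calr -0.11 to 0.043. With age it gave Hspa5 -0.23 to 0.055, Hsp90b1 -0.16 to 0.056, Ddit3 -0.017 to 0.22, Pdia4 -0.099 to 0.065 and Calr -0.16 to 0.17. Between restricted and young rats it gave Hspa5 -0.26 to 0.026, Hsp90b1 -0.057 to 0.16, Ddit3 -0.013 to 0.058, Xbp1 -0.064 to 0.024, Atf4 -0.070 to 0.026, Pdia4 -0.11 to 0.053, Sdf2l1 -0.13 to 0.16 and Calr -0.18 to 0.14. Alternatives for the correlations were chosen after seeing the data. Those of Hsp90b1 and Pdia4 passed in 5 of 5 settings of scaling, background correction and slide, Calr in 3 and Sdf2l1 in 1. The r of Dnajb9 was 0.069 with normexp and 0.054 with quantile scaling after it, and on the 8 arrays of the freely fed slide that of Ddit3 was 0.0093 and that of Atf4 0.0038. Leaving out 1 animal gave r of -0.22 to 0.16 for Ddit3, -0.51 to 0.42 for Atf4 and -0.30 to 0.22 for Dnajb9.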

Other observations

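Atf3, a stress-induced transcription factor listed among the targets of ATF4 and CHOP and chosen here after its values were seen, had the largest log2 changes without a call of that list with restriction and between restricted and young rats, but not with age. Its mean level was -0.84 ± 0.56 in restricted, 0.61 ± 1.24 in old freely fed and 0.93 ± 0.61 in young rats (SD, n = 4 each). The log2 change was -1.45 with restriction (limma, adjusted p = 0.157) and -1.78 between restricted and young rats (adjusted p = 0.0596). With age it was -0.33 (adjusted p = 0.737), smaller than that of Trib3, a pseudokinase of the same list, at 0.61 (adjusted p = 0.0579).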
